A study of Mus musculus with 4 samples.

Results

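The IKK and TAK1 kinase complexes were followed through 8 genes, taken by name from the 53647 genes in the count tables. Chuk and Ikbkb encode the catalytic subunits IKKα and IKKβ, Ikbkg encodes the regulatory subunit NEMO, Map3k7 encodes TAK1, Tab1, Tab2 and Tab3 encode its binding partners, and Map3k8 encodes TPL2. The rule takes them by name, with earlier results of these data known when the list was drawn up, and all 8 genes passed the filter on low counts. They are compared in mouse primary myotubes, the multinucleated muscle cells that form when cultured myoblasts fuse.

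The myoblasts were wild type and came from limb muscles of pups aged 2 to 3 days. After differentiation in horse serum, the myotubes of 2 libraries received EDA-A2 at 250 ng/mL for 24 h, and those of the other two are labelled control. EDA-A2 is an isoform of ectodysplasin A that binds the receptor EDA2R. All cultures were harvested at 72 h of differentiation, and polyadenylated RNA was sequenced from stranded libraries. What the control cultures received in place of EDA-A2 is not given in the sources used here. Nor is it said whether the replicates came from separate animals or cultures, so that p-values measure only the spread between these samples, which may be technical. The fit estimates that spread for each gene with information shared across genes, and not from its 2 replicates per condition alone.

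IKK is the kinase on which most NFκB signalling converges. IKKβ, held together with IKKα by NEMO, phosphorylates the IκB inhibitors and marks them for degradation in the canonical pathway, whereas IKKα, activated by the kinase NIK, drives the processing of the NFκB2 precursor in the noncanonical pathway. TAK1 lies upstream: TAB2 and TAB3 tether it to ubiquitin chains built at activated receptors, and TAK1 then phosphorylates IKKβ as well as the kinases of the JNK and p38 pathways. TPL2 is held inactive by the p105 product of Nfkb1, and once IKK has phosphorylated p105 it activates the ERK pathway. These kinases are switched on by phosphorylation and ubiquitin binding, neither of which a transcript count measures.

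After EDA-A2, none of the 8 kinase complex genes passed the test. In the quasi-likelihood test of edgeR, with Benjamini-Hochberg adjustment over all 15173 genes tested, at an adjusted p-value under 0.05, 0 of 8 were higher and 0 of 8 were lower. The background was 2.45% of all genes tested higher and 2.13% lower, or 4.57% in either direction, and against those shares a count of 0 among 8 is not a result about these genes. DESeq2 also called 0 of 8. At an unadjusted p-value under 0.05, 2 of 8 were higher, Map3k7 and Tab3, against 7.61% of all genes. The 8 log2 fold changes lay between 0.01 and 0.28 with a median of 0.11, against a median of -0.0021 over all genes. All 8 fitted changes were above 0, as were 49.5% of all genes. In 7 of 8, Tab1 being the exception, both EDA-A2 libraries lay above both control libraries, as they did in 22.7% of all genes tested. These counts describe genes chosen by name and carry no test of their own.

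Promoter sequences are shown for Ikbkb and Map3k7, beside those of Nfkbia, Nfkbie and Relb, pathway genes that rose after EDA-A2, since NFκB acts through a short DNA motif. The 250 bases before the canonical start of each gene were read from the GRCm39 assembly and searched on both strands for the 10-base κB consensus, the only motif searched. Capitals mark a match, and the sequences stop at the outermost annotated start of each gene. They run 5′ to 3′ on the gene's strand, at chr8:23196608-23196855 (minus strand) for Ikbkb, chr4:31963690-31963863 (plus) for Map3k7, chr12:55539433-55539682 (minus) for Nfkbia, chr17:45866356-45866584 (plus) for Nfkbie and chr7:19363426-19363673 (minus) for Relb.
Ikbkb: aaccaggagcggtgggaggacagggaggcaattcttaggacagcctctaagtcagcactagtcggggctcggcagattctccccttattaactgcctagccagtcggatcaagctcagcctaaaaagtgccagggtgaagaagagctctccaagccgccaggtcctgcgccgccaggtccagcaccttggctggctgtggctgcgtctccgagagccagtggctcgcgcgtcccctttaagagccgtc
Map3k7: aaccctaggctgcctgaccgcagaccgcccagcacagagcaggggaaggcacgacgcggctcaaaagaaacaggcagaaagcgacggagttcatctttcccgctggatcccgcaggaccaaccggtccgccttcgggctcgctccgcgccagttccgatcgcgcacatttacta
Nfkbia: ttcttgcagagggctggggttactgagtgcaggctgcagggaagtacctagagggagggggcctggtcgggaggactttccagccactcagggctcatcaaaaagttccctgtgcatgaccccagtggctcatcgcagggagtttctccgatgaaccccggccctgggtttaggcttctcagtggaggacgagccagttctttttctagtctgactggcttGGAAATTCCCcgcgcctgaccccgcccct
Nfkbie: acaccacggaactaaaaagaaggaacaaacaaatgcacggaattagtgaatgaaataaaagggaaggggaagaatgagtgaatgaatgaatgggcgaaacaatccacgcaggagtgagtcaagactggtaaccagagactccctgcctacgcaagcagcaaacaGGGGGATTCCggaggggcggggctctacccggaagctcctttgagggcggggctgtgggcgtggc
Relb: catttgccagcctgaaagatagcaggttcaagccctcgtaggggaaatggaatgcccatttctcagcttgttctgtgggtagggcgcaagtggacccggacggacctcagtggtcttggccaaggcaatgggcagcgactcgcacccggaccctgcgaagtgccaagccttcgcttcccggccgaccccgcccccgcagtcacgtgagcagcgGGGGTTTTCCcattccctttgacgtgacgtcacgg

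Counted from the canonical start, the match began at position -29 in Nfkbia, at -86 in Nfkbie and at -37 in Relb. The sequences shown for Nfkbie and Relb end before that start. None of the 8 kinase complex promoters held a match, against 1099 of the 13065 promoters of protein-coding genes tested (8.41%). Against that background nothing is read from a count of 0 of 8. Of 15 pathway genes that rose, described below, 6 held a match (40%), namely Cyld, Nfkbia, Nfkbie, Relb, Tank and Tnfaip3. The sequences shown for Nfkbia, Nfkbie and Relb are thus from those with a match. The other genes that rose held none, namely Birc3, Eda2r, Map3k14, Mapk11, Nfkb2, Tnip1, Traf1, Traf2 and Traf3. Among 59 pathway genes that did not pass the test, 2 held one (3.39%), Cdc37 and Hsp90aa1, which are named here after their sequences were seen. The difference between these shares was not tested, and the lists were drawn up with earlier results of these data known. A match describes the letters in this window, and the absence of one says only that these letters do not occur there.

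Values below are normalized counts, that is counts scaled to the mean library size after TMM correction, and each error is the SD of the 2 libraries of a condition (n = 2). Libraries held between 29444155 and 29746863 counts on genes, and TMM factors lay between 0.972 and 1.026. Myotube genes were abundant, with 13080 to 18797 CPM (counts per 1000000 counts on genes, after TMM) for the sum of 6 markers. Their sum was 18797 and 17656 CPM in control and 13080 and 13382 after EDA-A2, and 2 of the 6 (Myh3 and Acta1) and 1 of 3 myoblast markers (Cdh15) passed the test as lower. The bearing of this on the kinase genes was not tested, and in bulk RNA fewer cells of a type and less RNA per cell cannot be told apart. Of 5 macrophage markers only Cd68 had enough counts to be tested, and it did not pass. The sum of the 5 was 2.09 to 3.01 CPM, mostly Cd68, and Ptprc had 0 to 2 counts per library. For 3 T cell markers there was 1 count in all, and Cd4 and Cd8a were at 0 in every library. The sum of 3 endothelial markers was 0.905 to 1.09 CPM. Of 4 fibroblast markers 3 were tested and none passed, and Thy1 had 0 counts. Their sum stood high in control replicate 1, with 324 CPM against 173 to 210 in the other libraries. That sum was mostly Col1a1, with 9004 raw counts in control replicate 1 and 4769 to 5904 in the others. Pdgfra and Dcn instead had their lowest raw counts in control replicate 1, with 240 and 73. The 3 markers of dividing cells summed to 623 to 741 CPM, and none passed.

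**Figure D1:**
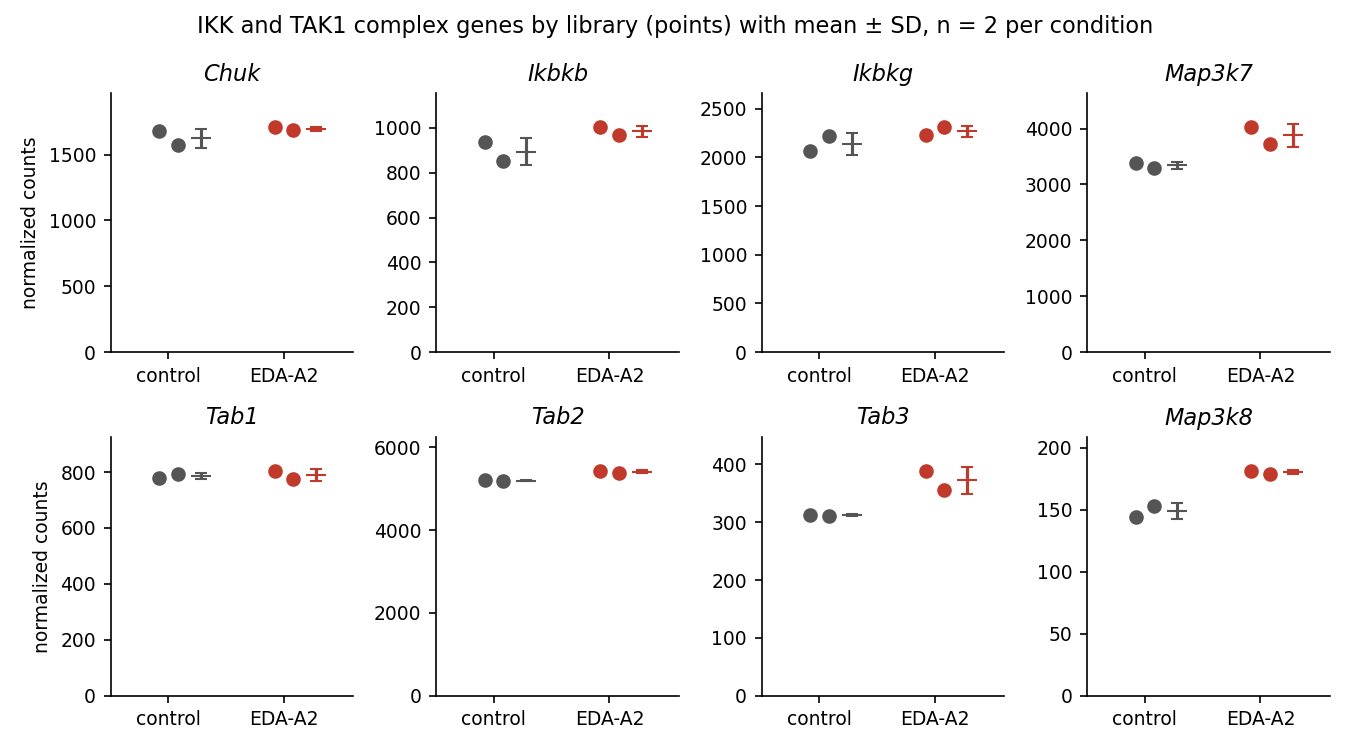
Normalized counts (linear axes from 0) of the 8 IKK and TAK1 complex genes in the 2 control libraries (grey points) and the 2 EDA-A2 libraries (red points), with the mean ± SD of each condition beside them. The EDA-A2 points lie above both control points for every gene but Tab1, by 348 normalized counts for Map3k7 and by 11.1 for Chuk.

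Neither catalytic IKK subunit passed the test. Chuk (IKKα, ENSMUSG00000025199, chromosome 19 from 44061769 to 44095935 on the minus strand of GRCm39) had 1675 and 1572 normalized counts in control replicates 1 and 2, and 1707 and 1686 in EDA-A2 replicates 1 and 2. The groups did not overlap, but the higher control library lay within 11.1 normalized counts of the lower EDA-A2 library. The means were 1624 ± 73.0 and 1697 ± 14.8, a log2 fold change of 0.06 (95% interval -0.09 to 0.22, Benjamini-Hochberg adjusted p = 0.773 in edgeR).

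Ikbkb (IKKβ, ENSMUSG00000031537, chromosome 8 from 23148709 to 23196607, minus strand), the kinase of the canonical pathway, had 937 and 851 normalized counts in control and 1003 and 967 after EDA-A2. Both treated libraries lay above both controls. The means were 894 ± 60.4 and 985 ± 25.2, and the log2 fold change of 0.14 (95% interval -0.04 to 0.32) did not pass, with a Benjamini-Hochberg adjusted p of 0.496 in edgeR. On the linear scale the difference was 10.2%, and its interval ran from -2.94% to 25.1%.

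Ikbkg (NEMO, ENSMUSG00000004221, chromosome X from 73436216 to 73500393, plus strand), the subunit that binds ubiquitin chains, had 2061 and 2218 normalized counts in control and 2227 and 2309 after EDA-A2. The treated libraries were higher, with control replicate 2 and EDA-A2 replicate 1 nearly level. From 2139 ± 111 to 2268 ± 57.8, the log2 fold change was 0.08 (95% interval -0.07 to 0.24, Benjamini-Hochberg adjusted p = 0.669 in edgeR). Ikbkg shares 22963 bases of its span with G6pdx and 806 with Fam3a, both on the opposite strand, which had 3565 and 2843 counts over the 4 libraries. The strand setting used in counting is not given in the sources used here, so that the split of reads between these genes is uncertain.

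TAK1 showed the change nearest to the threshold. Map3k7 (ENSMUSG00000028284, chromosome 4 from 31963864 to 32051628, plus strand) had 3382 and 3297 normalized counts in control and 4023 and 3730 after EDA-A2. The lower treated library exceeded the higher control by 348 normalized counts, well over the 85.1 that separated the controls and slightly over the 294 that separated the treated libraries. The means were 3339 ± 60.2 and 3877 ± 208, a difference of 16.1% with a 95% interval of 4.82% to 28.6%. The log2 fold change was 0.22 (standard error 0.07), with an unadjusted p of 0.00723 and a Benjamini-Hochberg adjusted p of 0.105 in edgeR. Scaling by total counts in place of TMM brought Map3k7 to a log2 fold change of 0.27 and under the threshold in edgeR (adjusted p = 0.0439). With each library left out in turn, its log2 fold change lay between 0.16 and 0.27.

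None of the 3 TAK1 binding partners passed the test. Tab1 (ENSMUSG00000022414, chromosome 15 from 80017318 to 80046082, plus strand), which binds and activates TAK1, had 779 and 794 normalized counts in control and 805 and 775 after EDA-A2. The groups overlapped, with the EDA-A2 libraries the highest and the lowest of the 4. The log2 fold change was 0.01 (95% interval -0.18 to 0.19, Benjamini-Hochberg adjusted p = 0.982 in edgeR), from 786 ± 10.4 to 790 ± 20.7.

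Tab2 (ENSMUSG00000015755, chromosome 10 from 7781417 to 7832252, minus strand), an adaptor that binds ubiquitin chains, had 5205 and 5185 normalized counts in control and 5436 and 5382 after EDA-A2. Replicates lay closer to each other than the conditions did, yet the step from 5195 ± 14.1 to 5409 ± 38.2 amounted to only 4.11%. Its log2 fold change was 0.06 (95% interval -0.08 to 0.20) and did not pass (Benjamini-Hochberg adjusted p = 0.761 in edgeR).

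Tab3 (ENSMUSG00000035476, chromosome X from 84617301 to 84678083, plus strand), the adaptor most like TAB2 in its role, had 313 and 311 normalized counts in control and 389 and 356 after EDA-A2. Both treated libraries were clearly above the controls, which were nearly identical. From 312 ± 1.86 to 372 ± 23.6 the difference was 19.4%, with a 95% interval of 0.656% to 41.7%. The log2 fold change of 0.26 (standard error 0.12) had an unadjusted p of 0.0429 and a Benjamini-Hochberg adjusted p of 0.296 in edgeR.

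The counts of TPL2 were the lowest of the 8 genes. Map3k8 (ENSMUSG00000024235, chromosome 18 from 4331327 to 4353463, minus strand) had 144 and 153 normalized counts in control and 181 and 179 after EDA-A2. The conditions did not overlap, and the treated libraries were nearly level. From 149 ± 6.39 to 180 ± 1.74 the log2 fold change was 0.28, the highest of the 8, but its 95% interval of -0.05 to 0.60 was also the widest (Benjamini-Hochberg adjusted p = 0.438 in edgeR). Its smallest raw count was 140, for which counting error alone is 8.45%. A lncRNA on the opposite strand, 4833419F23Rik, overlaps 2609 bases of Map3k8 and had 32 counts over the 4 libraries.

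The intervals say how large a change could have been missed. They included 0 for 6 of the 8 genes and reached at most 0.60 on the log2 scale, for Map3k8. With the standard errors of this fit, a rise of 0.24 (Tab2) to 0.57 (Map3k8) on the log2 scale would have been needed to pass, and the smallest change called in any gene was 0.24. Estimates smaller than these would not have passed at this depth and with 2 libraries per condition, and true changes of this size or somewhat larger could also have been missed.

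**Figure D2:**
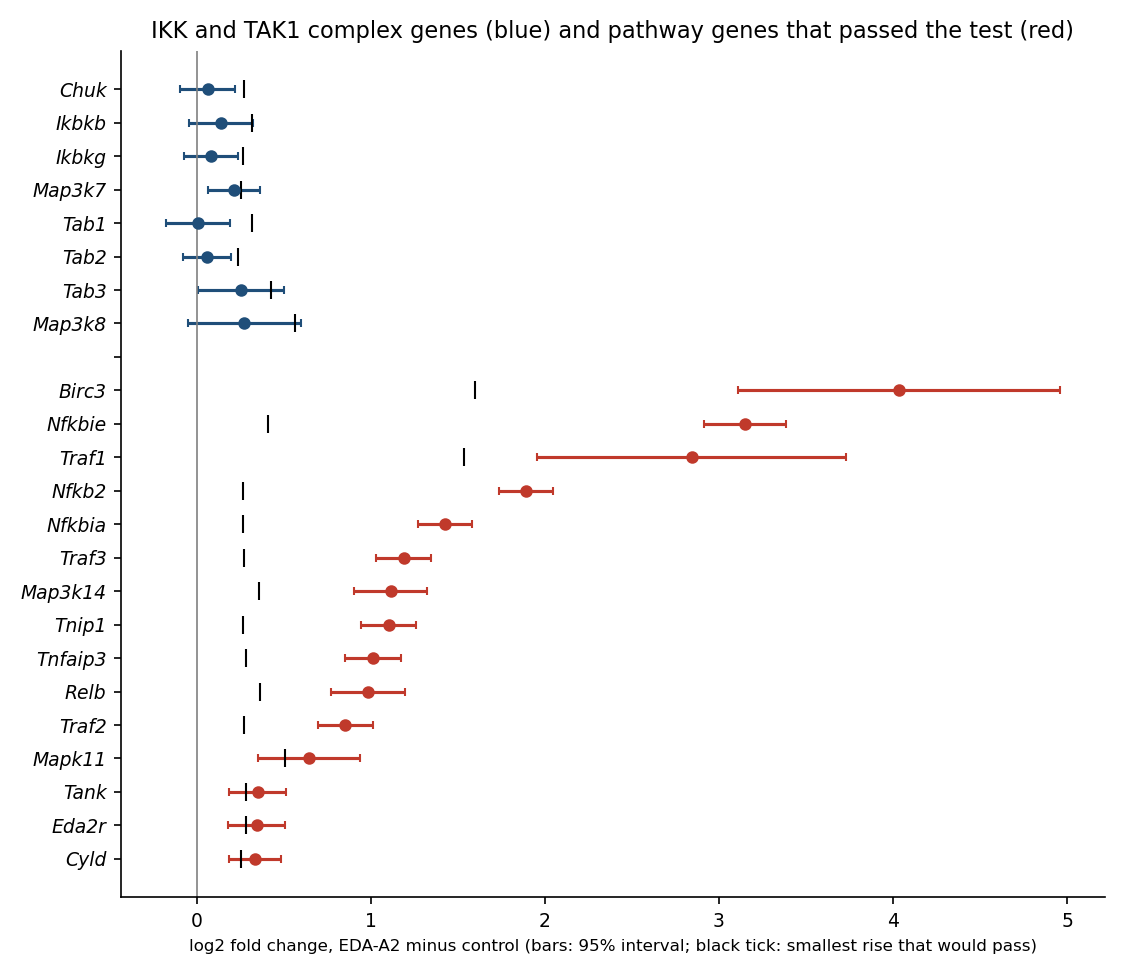
Log2 fold change, EDA-A2 minus control, with its 95% interval (bars), of the 8 IKK and TAK1 complex genes (blue) and of the 15 pathway genes that passed the test (red); black ticks mark the smallest rise of each gene that would have passed. The blue points lie between 0.01 and 0.28, each left of its tick, as holds for any rise that did not pass. Of the 15 red intervals, 11 begin above 0.60, the highest upper bound of the blue ones. The red genes were selected by passing the same test, so nothing is read from this separation.

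Per length, the order of the 8 genes set Tab2 first. The level in CPM per kb of exon (union of all annotated exons) averaged 26.9 for Tab2 over the 4 libraries, 10.5 for Map3k7, 9.34 for Chuk, 5.45 for Ikbkg, 4.43 for Tab1, 1.64 for Tab3, 1.30 for Ikbkb and 1.12 for Map3k8. Taken over the 4 libraries, values of Map3k7 and Chuk overlapped, as did those of Ikbkb and Map3k8, while the other neighbours did not overlap. Within each library, however, Map3k7 lay above Chuk and Ikbkb above Map3k8. The union of exons is 24325 bases for Ikbkb, against 4155 for its longest coding transcript. With the latter its level was 7.64, below Tab1 (8.23) in each library, while its order with Ikbkg (7.49) varied between libraries. Ikbkg stood at 22.3 with the length of its canonical transcript, which overlapped with Map3k7 (20.8) behind Tab2 (38.6). Tab2 was the highest and Tab3 and Map3k8 were among the lowest 3 under each of these lengths. The deposited counts do not say which isoforms were present.

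**Figure D3:**
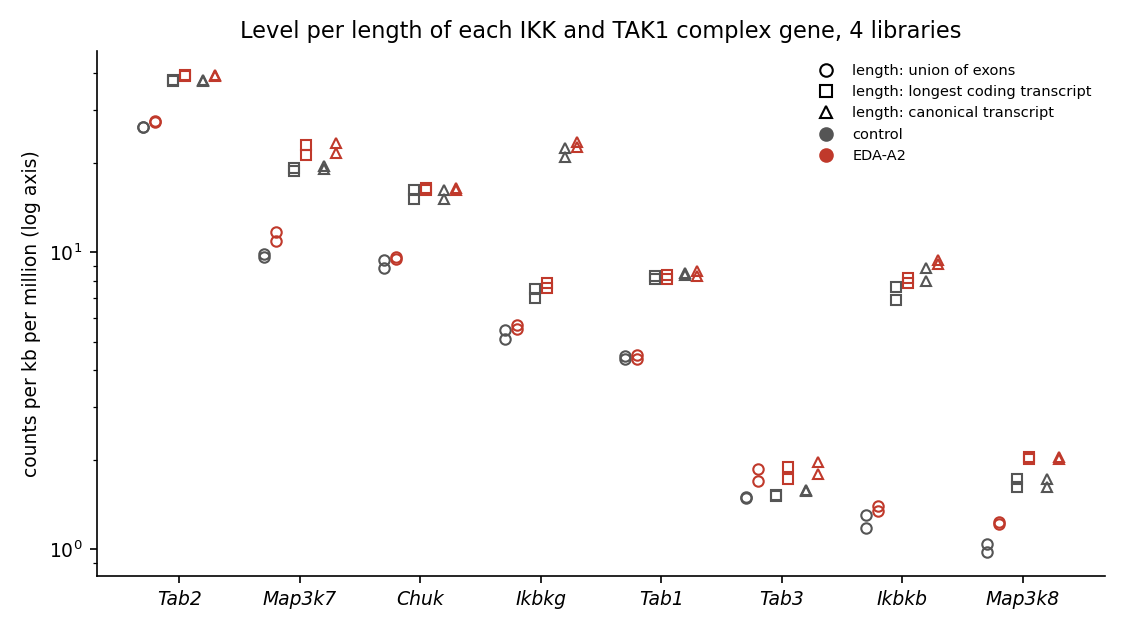
Level of each IKK and TAK1 complex gene in CPM per kb (log axis) in the 2 control (grey) and 2 EDA-A2 (red) libraries, with the length taken as the union of exons (circles), the longest coding transcript (squares) or the canonical transcript (triangles). Tab2 stays on top, whereas Ikbkb goes from 1.30 to 7.64 and 8.84, and Ikbkg from 5.45 to 7.49 and 22.3, depending on the length used.

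Pathway genes around the complexes were counted in lists of 77 genes, of which 74 were tested. After EDA-A2, 15 rose and 0 fell, against 2.45% and 2.13% of all genes. The median log2 fold change over the 74 genes was 0.08 and that of the kinase complexes 0.11, and 59 of the 74 did not pass. Without control replicate 1 the number that rose was 3, and without control replicate 2 it was also 3, in both cases Nfkbie, Nfkb2 and Nfkbia. The loss without either control was common to all the other pathway genes that rose, and is not particular to those for which it is repeated below. Nfkb1 and Map3k14 each stand in 2 of the lists.

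Among IKK substrates and NFκB subunits, 4 of 8 rose and none fell, with a median of 0.64. Nfkbie, the inhibitor IκBε and a substrate of IKK, rose from 137 and 163 normalized counts to 1283 and 1388, a log2 fold change of 3.15. Nfkb2, whose p100 precursor is processed downstream of IKKα, rose from 1008 and 1005 to 3660 and 3808 (log2 fold change 1.89). Nfkbia, the inhibitor IκBα and a substrate of IKKβ, rose from 1371 and 1271 to 3550 and 3558 (1.43 on the log2 scale). Relb, the partner of the processed NFκB2 protein, rose with a log2 fold change of 0.99. In each of these 4 genes the treated libraries stood above both controls. The 4 genes of the list that did not pass, named here after their values were seen, were Nfkb1 at 0.10, with overlapping groups, Rel at 0.27, Rela at 0.30 and Nfkbib at 0.30 on the log2 scale. The 2 catalytic kinase genes, at 0.06 and 0.14, lay on either side of Nfkb1.

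Among adaptors, ubiquitin ligases and NIK, which pass the signal from receptors to the kinase complexes, 5 of 16 rose and none fell, with a median log2 fold change of 0.12. Traf3 and Traf2, adaptors that together restrain NIK, rose by 1.19 and 0.86 on the log2 scale. Map3k14, which encodes NIK, the kinase that activates IKKα, rose from 438 and 386 normalized counts to 894 and 890 (log2 fold change 1.11). Birc3, a ubiquitin ligase of the same complex, had 4 and 3 raw counts in control and 69 and 54 after EDA-A2, and its fitted log2 fold change of 4.03 depends on those few control counts. Traf1, named after its value was seen, had 5 and 7 raw counts in control and 39 and 52 after EDA-A2 (log2 fold change 2.84). Ube2n, which builds the ubiquitin chains that TAB2 and NEMO read and has the most counts of this list, did not pass at 0.12 (95% interval -0.02 to 0.27).

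**Figure D4:**
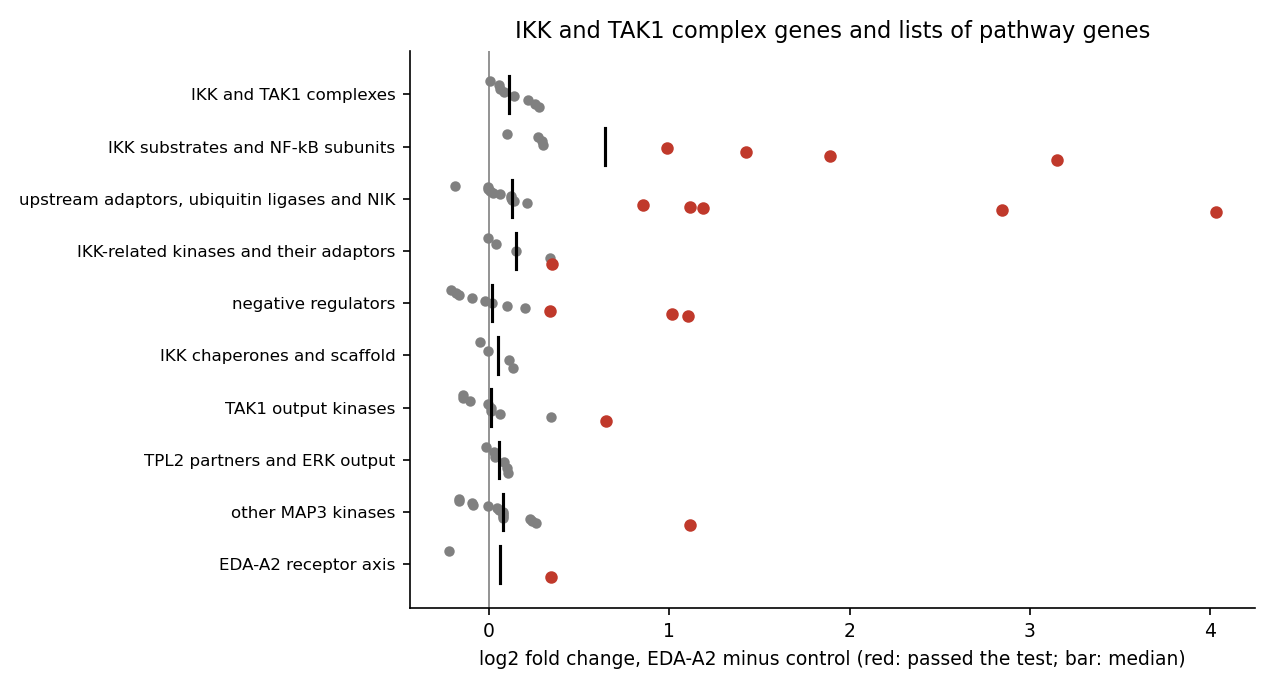
Log2 fold change, EDA-A2 minus control, of the 8 IKK and TAK1 complex genes and of each list of pathway genes; each point is a gene, red where it passed the test, and the black bar is the median of the list. Red points occur among substrates and subunits (4 of 8), adaptors (5 of 16) and negative regulators (3 of 11). They also occur among IKK-related kinases (1 of 5), TAK1 output kinases (1 of 9), other MAP3 kinases (1 of 15) and the receptor axis (1 of 2). There are none among chaperones and scaffold (0 of 4), TPL2 partners (0 of 6) and the kinase complexes (0 of 8). Over all genes tested 2.45% were higher, and nothing is read from 0 of 8.

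Of the 11 negative regulators of these kinases, 3 rose and none fell, with a median of 0.02. Tnip1 (ABIN1) and Tnfaip3 (A20), which bind or edit ubiquitin chains and damp IKK activity, rose by 1.10 and 1.01 on the log2 scale, and Cyld, a deubiquitinase, by 0.34. The call of Cyld was lost with no filter and without either control library or EDA-A2 replicate 2 (0.29 to 0.38 on the log2 scale). Rnf11, which works with A20 and has the most counts of this list, had a log2 fold change of -0.17 (95% interval -0.32 to -0.02, Benjamini-Hochberg adjusted p = 0.257 in edgeR). Among 5 genes of the IKK-related kinases and their adaptors, Tank rose by 0.35, 4 did not pass, and the median was 0.15. The call of Tank was lost with length and GC offsets (0.27, adjusted p = 0.0649 in edgeR), with no filter (adjusted p = 0.145) and with each of the 4 libraries left out (adjusted p from 0.0602 to 0.234). The adaptor with the most counts in that list, Azi2, stood at 0.04. None of the 4 chaperone and scaffold genes passed (median 0.05), including Hsp90ab1, a chaperone of IKK, at 0.11.

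Downstream of TAK1, 1 of 9 tested genes among the kinases of the JNK and p38 pathways rose and none fell, with a median log2 fold change of 0.01. Mapk11 (p38β) rose from 197 and 174 normalized counts to 308 and 273 (log2 fold change 0.65), a call lost with no filter and without either control library or EDA-A2 replicate 1, and Map2k4, a kinase upstream of JNK with the most counts of this list, had 0.01. Mapk13 had at most 1 count per library and was not tested. Among 6 partners and targets of TPL2 none passed (median 0.06), and Map2k1, the MEK1 kinase, stood at -0.02. Of the other 15 MAP3 kinases, Map3k14 alone passed, the same gene as among the adaptors, with a median of 0.08 over the list, and Map3k20, with the most counts, had 0.08. TAK1 and TPL2 themselves, at 0.22 and 0.28, lay above that median and below Map3k14.

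Eda2r, the receptor of EDA-A2, rose from 7024 and 7685 to 8732 and 9951 normalized counts, a log2 fold change of 0.35 (Benjamini-Hochberg adjusted p = 0.0178 in edgeR). This call was lost with length and GC offsets (0.28, adjusted p = 0.0877 in edgeR) and with no filter (adjusted p = 0.261). It was also lost without control replicate 1, control replicate 2 or EDA-A2 replicate 2, with adjusted p of 0.325, 0.199 and 0.270 in edgeR. Of the 4 genes of the receptor axis 2 were tested, and Eda, the gene of the ligand, did not pass at -0.22 (95% interval -0.57 to 0.12). Edaradd, the adaptor of the receptor Edar, had 5 and 6 raw counts in control and 0 and 1 after EDA-A2, and was not tested. Edar, the receptor of the other ectodysplasin isoform, had 0 counts in every library, which allows up to 0.102 CPM. Such limits cover counting error only, since no molecular identifiers tell copied read pairs from separate molecules.

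Leaving out 1 library moved the size of the changes to differing extents. Chuk lay at 0.02 without control replicate 2 and 0.11 without control replicate 1, and Ikbkb at 0.07 and 0.21. Ikbkg went the other way, with 0.14 and 0.03. The range was 0.05 to 0.07 for Tab2, 0.19 to 0.32 for Tab3 and 0.23 to 0.32 for Map3k8. Over 13 alternatives, 7 of the 8 genes kept a log2 fold change above 0 throughout, and Tab1 did so in 11 of 13.

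**Figure D5:**
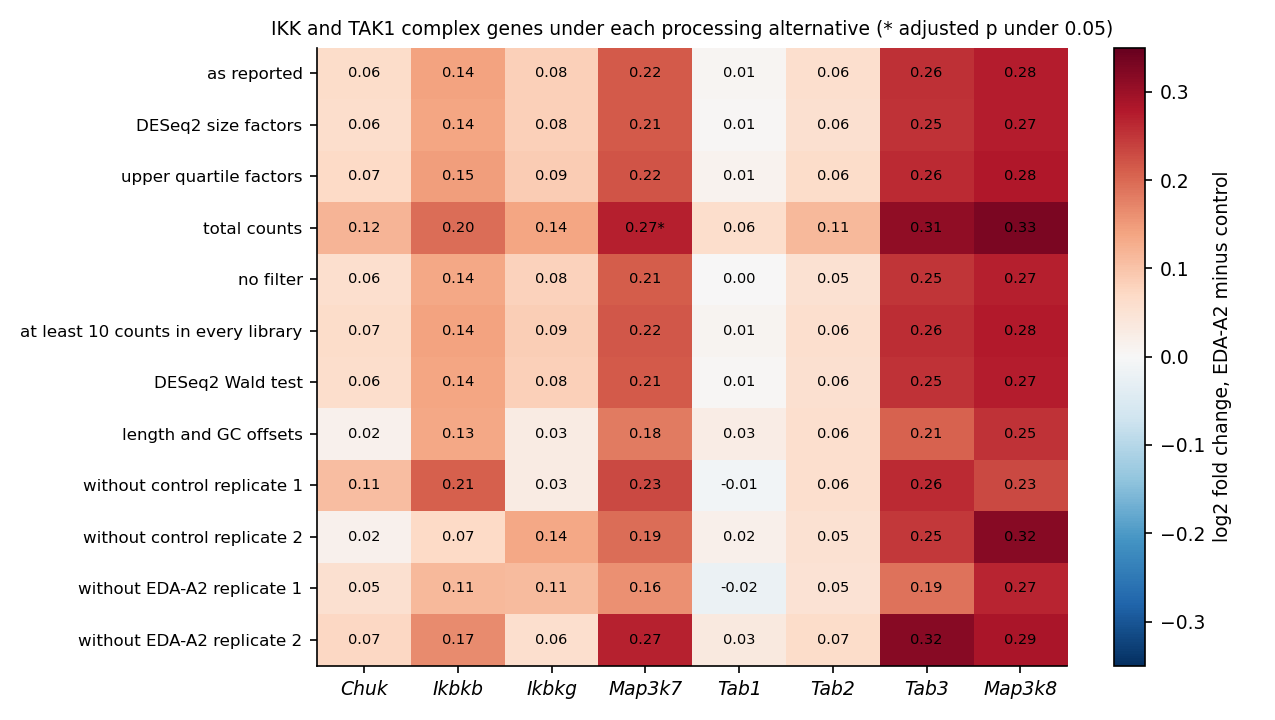
Log2 fold change, EDA-A2 minus control, of the 8 IKK and TAK1 complex genes (columns) as reported and under the processing alternatives without a replicate block (lines), printed in each cell and coloured from blue (lower) to red (higher), with a star where the adjusted p-value was under 0.05. Only Map3k7 carries a star, under total counts, and only Tab1 falls below 0, with 1 library left out.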

How the data were processed

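Bulk RNA sequencing of 4 libraries of mouse primary myotubes was analysed, 2 of control and 2 of EDA-A2-treated cultures. According to the submitters' processing notes and the paper's methods, reads were checked with FastQC 0.11.9 and MultiQC 1.12, trimmed with Trim Galore 0.6.5, mapped to GRCm39 with STAR 2.7.3a and counted with HTSeq 0.11.1. The values deposited by the authors are whole-number counts of read pairs for each Ensembl gene, one library to a table, with no normalization. The annotation release and the strand setting of the counting are not given in the sources used here. The summary lines of HTSeq entered neither library sizes nor tests. They put 6.68% to 7.40% of pairs outside genes, 0.946% to 0.986% as ambiguous and 4.56% to 4.76% as not uniquely mapped. Symbols, positions and lengths came from GENCODE mouse release 39, which matched 52610 of 53647 genes.

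Counts were tested in R 4.3.3 with edgeR 4.0.16 by the quasi-likelihood test (TMM scaling, filterByExpr at min.count 10 and min.total.count 15, glmQLFit, glmQLFTest) on condition alone. Benjamini-Hochberg adjustment covered 15173 genes, with a threshold of 0.05. The standard error was taken as log2 fold change over the root of the F statistic, and the smallest change that would pass takes the largest unadjusted p called, 0.00226. Replicates were not duplicates, with a chi-square per gene of 9.94 for control and 4.73 for EDA-A2. The alternatives tried were scaling by total counts, by upper quartiles or by DESeq2 size factors, no filter, a filter of 10 or more counts per library, the Wald test of DESeq2 1.42.0, a replicate block, loess offsets for length and GC content (span 0.3), both together, and leaving out each library. The edgeR fit, the Wald test of DESeq2 and the length and GC offsets were run on simulated counts, and the other alternatives were not.

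The kinase complex genes and the pathway and marker lists were chosen with earlier results of these data known. Text names all 8 kinase complex genes, Eda2r, and in each list every gene called if at most 4, otherwise the 4 with the smallest p-value, with the gene of most counts. Genes whose pattern is most like a kinase complex gene were to be named where that gene was called, and none was.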

Additional observations from a re-analysis of the deposited data

How the results depend on the processing

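Over 13 alternatives for each of the 8 kinase complex genes, 100 of 104 log2 fold changes kept their direction and their side of the threshold, and 102 were above 0. Scaling by total counts called 1 of the 8 higher (Map3k7, 0.27), and so did the replicate block (Map3k7, 0.21, adjusted p = 0.0460 in edgeR). The other alternatives called 0 of 8 higher, and every alternative called 0 of 8 lower. With each library left out, the number called stayed at 0, and the log2 fold change of Map3k7 lay between 0.16 and 0.27 (adjusted p from 0.197 to 0.788 in edgeR). Over all its alternatives the adjusted p of Map3k7 lay between 0.0439 and 0.788. That of Tab1 changed sign, with values of -0.020 to 0.033 when a library was left out, the lowest without EDA-A2 replicate 1 and -0.0087 without the first control. Total counts moved the median of all genes from -0.0021 to 0.05 and the share of calls that were higher from 53.5% to 71.4%. Both EDA-A2 libraries lay above both controls in the same 7 of 8 genes under each scaling, while the share over all genes was 22.4% to 33.2%.

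Replicate numbers are shared by the conditions in the labels, but nothing says that they mark a shared culture or day. The deviations of same-numbered libraries correlated at 0.12 over 12349 genes, which is 1 value from 2 pairs, so the numbers were not taken as pairing. The block raised the calls over all genes from 694 to 1066, and with length and GC offsets to 1315. With block and offsets together 0 of 8 kinase complex genes were called, and 1 pathway gene was called lower.

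Pathway genes called higher numbered 15 as reported and 10 to 18 under alternatives that kept all libraries. They numbered 3 without control replicate 1, 3 without control replicate 2, and 13 and 12 without EDA-A2 replicates 1 and 2, where a lone library is assumed to vary like the other condition. Calls over all genes fell to 86 with no filter and to 7, 9, 351 and 416 with a library left out. Of the 15, 5 were no longer called with no filter (Cyld, Eda2r, Mapk11, Tank and Traf1) and 2 with length and GC offsets (Eda2r and Tank). Pathway genes near 0 changed sign. Azi2 was at -0.016 with offsets, with and without the block, and between -0.00097 and 0.069 with a library left out. Map2k4 was at -0.024 with offsets alone and with the block, and between -0.052 and 0.078 with a library left out. Map2k1 was at 0.036 with total counts, and Map3k20 between -0.011 and 0.17 with a library left out. The cause of these shifts was not tested.

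Levels per length moved with the length used. By the longest coding transcript they were 38.6 for Tab2, 20.6 for Map3k7, 16.0 for Chuk, 8.23 for Tab1, 7.64 for Ikbkb, 7.49 for Ikbkg and 1.85 for Map3k8. By the canonical transcript, an alternative chosen after seeing the data, they were 38.6, 20.8, 16.0, 8.46, 8.84, 22.3 and 1.85 for the same genes.

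With 2 libraries per condition, the fit as reported would not have called estimates of the kinase complex genes under 0.24 to 0.57 on the log2 scale, depending on the gene. These are limits on the estimates and not on the true differences.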

Other observations

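Ratios of counts between kinase complex genes within a library need no scaling between libraries. Tab2 stood at 16.6 and 16.7 counts for each count of Tab3 in control, and at 14.0 and 15.1 after EDA-A2. Relative to Map3k7, Tab2 went from 1.54 and 1.57 to 1.35 and 1.44, and Tab1 from 0.230 and 0.241 to 0.200 and 0.208. The ratio of Tab3 to Map3k7 was 0.0926 and 0.0942 in control and 0.0967 and 0.0954 after EDA-A2. Chuk stood at 1.79 and 1.85 counts for each count of Ikbkb in control and at 1.70 and 1.74 after EDA-A2. In these 5 of 8 ratios computed the conditions did not overlap, and in the other 3 (Ikbkg to Chuk, Ikbkg to Ikbkb, and Map3k8 to Map3k7) they did. Over single genes, 45.0% of those tested had groups apart in one direction or the other, and 4 of the 8 ratios share Map3k7, so that nothing is read from the count. A two-sided exact permutation test of 2 against 2 libraries cannot go below p = 0.333, which each of the 5 reached (0.533 after Benjamini-Hochberg adjustment over the 8).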
